A study of Mus musculus with 18 samples.

Results

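Naïve bone marrow-derived macrophages (BMDM) whose choline uptake had been blocked with hemicholinium-3 (HC3) were compared with vehicle-treated (Veh) macrophages across all expressed genes. The comparison was chosen by treatment labels alone and holds 6 of the 18 RNA-seq libraries of the series, 3 labelled HC3 M[0] and 3 labelled Veh M[0], where M[0] denotes cells left without a polarizing cytokine. Of 55385 genes in the count table, 14979 were tested, having reached 10 counts in 2 or more of the 18 libraries. All libraries came from BMDM of female C57BL/6J mice aged 12 weeks, and 3 individual mice are given as the source. Marrow cells were grown in DMEM with 20% L-929 culture supernatant, a source of M-CSF, and harvested on day 7. They then received 250 µM HC3 or 0.1% DMSO as vehicle for 24 h, followed by another 24 h in the M[0] state. Further libraries are used here only for reference. One set received 5 µM RSM-932a (RSM), a choline kinase inhibitor, in M[0], and the other is the Veh and HC3 pair in which IL-4 at 20 ng/mL was present for the second 24 h, named M[IL-4]. The L-929 medium drives macrophage growth in every group, so the cells are a culture model of a bone marrow macrophage and not a tissue-resident population.

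Choline enters macrophages through solute carriers and is phosphorylated by choline kinase, activated to CDP-choline and joined to diacylglycerol to form phosphatidylcholine (PC), the main phospholipid of cell membranes. HC3 is a choline analogue that competes for the transporters. Mitochondria import PC for their membranes and keep their own small genome, which encodes subunits of the respiratory chain, both mitochondrial ribosomal RNAs (rRNA) and the transfer RNAs (tRNA) that separate them. Cells short of amino acids or with damaged mitochondria phosphorylate the initiation factor eIF2α, which favours translation of ATF4 and its target genes, a programme named the integrated stress response (ISR).

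The 6 libraries held 17457796 to 19285482 counts each, so that 3 counts in 1 library correspond to 0.154 to 0.176 CPM (counts in every 1000000, scaled by TMM factors). Replicates of a group differed by 8.07 to 13.03 on a chi-square scale per gene, where counting error alone gives about 1. On the first principal component of log2 CPM, which took 67.3% of the variance, the HC3 libraries lay between 42.2 and 47.1 and the Veh libraries between -52.4 and -41.0. Of 23 macrophage identity genes, all passed the count filter, among them the M-CSF receptor gene *Csf1r* (chr18:61100598-61132149 of GRCm38, + strand). *Csf1r* was at 1504 CPM or more in each of the 6 libraries, and the summed level of the identity genes was at least 12811 CPM in each, so the markers of the labelled cell type were present in both groups. Among markers of other cells, 1 of 10 neutrophil, 1 of 9 T and NK cell, 2 of 8 dendritic cell, 3 of 8 B cell and 4 of 10 erythroid and mast cell genes passed the filter, compared with 8 of 10 stromal genes. With HC3, 1 of these B cell genes was called higher and 1 lower, 2 of the erythroid and mast cell genes were called higher, and 1 gene each of the T cell and dendritic cell lists was called lower. Some of these calls rested on single libraries. In the B cell list, *Ighm* was called lower (-3.71) and *Ebf1* higher. *Ebf1* was at 6.58, 2.70 and 6.08 CPM in Veh and 15.1, 8.91 and 12.4 CPM with HC3, with replicate 2 lowest in both groups. The cells that its counts came from were not tested. *Ebf1* was not called without HC3 replicate 1 (1.05) or Veh replicate 2 (0.94), and *Cd79b* was called lower too without HC3 replicate 2 (-3.46). The dendritic cell gene, *Batf3*, was not called without HC3 replicate 1 or 2 or Veh replicate 2 or 3. The mast cell gene *Cpa3*, not called here (1.29), was called higher with the replicate number as a block (1.33). The neutrophil calprotectin gene *S100a8* was at 0.553, 0.352 and 0.269 CPM in Veh and at 0.428, 0.819 and 0.263 CPM with HC3.

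HC3 altered a large share of the transcriptome of naïve macrophages in both directions. Genes were called by edgeR at a false discovery rate (FDR) under 0.05, adjusted over all tested genes, together with a change of 1 or more on the log2 scale in either direction. By this rule 1804 genes (12.0% of those tested) were called, 889 higher (5.93%) and 915 lower (6.11%) than in Veh. With the FDR alone, 3384 genes (22.6%) were higher and 3224 (21.5%) lower, and the median log2 fold change of all tested genes was 0.02. Most calls were of moderate size, with 692 higher and 684 lower by a log2 fold change of 1 to 2 in size, 159 and 204 between 2 and 4, and 38 and 27 at 4 or more. The 3 HC3 libraries did not overlap the 3 Veh libraries in 863 of the 889 genes called higher and in 900 of the 915 called lower, against 52.2% of all tested genes. Protein-coding genes made up 758 of the calls upward and 724 of those downward. In such bulk libraries, fewer cells of a type and less RNA per cell cannot be told apart, and counts on exons shared by genes of opposite strands cannot be assigned, since no strand setting is stated.

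**Figure D1:**
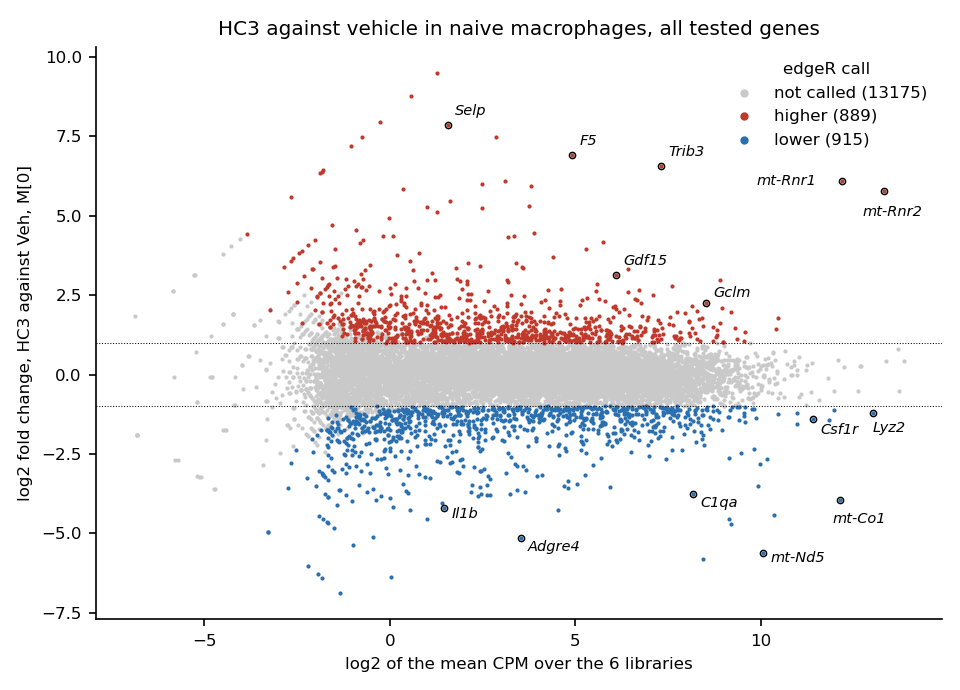
Each point is a tested gene, placed by the log2 of its mean CPM over the 6 libraries (horizontal) and its log2 fold change of HC3 against Veh in M[0] (vertical), with red for the 889 genes called higher and blue for the 915 called lower. Dotted lines mark log2 fold changes of 1 and -1, 9 tested genes without a count in these libraries are not drawn, and both mitochondrial rRNAs stand at the upper right with log2 fold changes of 6.08 and 5.79.

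Transcripts of the mitochondrial chromosome changed more than any other list examined by the size of their median, and rRNAs and mRNAs moved in opposite directions. The 12S rRNA gene *mt-Rnr1* was at 149.7, 151 and 108 CPM in the 3 Veh libraries and at 9972, 10389.5 and 7271 CPM in the 3 HC3 libraries (log2 fold change 6.08, SE 0.231, FDR = 2.31e-13). The 16S rRNA gene *mt-Rnr2* went from 391, 383 and 329 CPM to 22130.1, 22760.1 and 15948 CPM (log2 fold change 5.79, SE 0.187, FDR = 4.88e-14). The third HC3 library was lowest for both rRNAs but still far above every Veh library. All 12 tested mRNAs of the 13 were called lower, with a median log2 fold change of -3.88, whereas 6.11% of all tested genes were called lower. The largest fall was in counts on *mt-Nd6*, the only mRNA gene on the other strand. They went from 779, 691 and 602 CPM to 15.9, 11.3 and 9.68 CPM (log2 fold change -5.81, SE 0.217, FDR = 2.08e-13). Since no strand setting is stated, RNA of the 2 strands cannot be told apart at this gene. The complex I gene *mt-Nd5* fell from 2355, 2047 and 1931 CPM to 49.4, 39.8 and 41.0 CPM (log2 fold change -5.60, SE 0.176, FDR = 4.04e-14). The complex IV gene *mt-Co1* was at 9177, 8355 and 7742 CPM in Veh and at 579, 545 and 500.1 CPM with HC3 (log2 fold change -3.96, SE 0.140, FDR = 1.11e-13), and the complex III gene *mt-Cytb* fell as well, with a log2 fold change of -4.43. Complex I mRNAs had a median of -4.54 over 7 genes and complex IV mRNAs one of -3.81 over 3.

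As a share of all counts, mitochondrial mRNAs took 1.63 to 1.97% in Veh and 0.0940 to 0.107% with HC3, while mitochondrial rRNAs took 0.0439 to 0.0543% in Veh and 2.42 to 3.36% with HC3. The sum of both classes and the tRNAs was therefore higher with HC3 (2.51 to 3.45%) than in Veh (1.68 to 2.03%). Of 13 tested tRNA genes, 12 were called lower, with a median of -3.71. The exception, *mt-Ts2*, was at 0.608, 0.352 and 0.699 CPM in Veh and at 0, 0.358 and 0.0526 CPM with HC3 (log2 fold change -1.95, SE 0.782, FDR = 0.0513), and it was called lower with the replicate block (-2.07, FDR = 0.0192), by DESeq2 (-2.01) and without the count filter (-1.95), HC3 replicate 2 (-4.08) or Veh replicate 2 (-2.18). These libraries were made from poly-T selected RNA, in which the amount of a transcript and the share of it with a poly(A) tail cannot be told apart, and a count on a tRNA gene can come from a longer transcript that spans it. Counts of *mt-Atp6*, *mt-Co2*, *mt-Co3*, *mt-Nd3* and *mt-Nd4l* were low, at most 17.1 CPM in any Veh library, and over 98.9% of the length of each is nearly identical to a copy on a nuclear chromosome, so their values are uncertain. The mRNA medians given above include these genes, and that of complex IV is the value of *mt-Co3* (-3.81). The copy of *mt-Nd4* on chromosome 1, *Gm28439*, fell alongside it (-4.56 against -4.70).

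The change of direction fell at a single short gene. The leucine tRNA gene *mt-Tl1* lies at chrM:2676-2750 of GRCm38 on the + strand, directly after *mt-Rnr2* (chrM:1094-2675) and directly before the complex I gene *mt-Nd1* (chrM:2751-3707). Its sequence is shown because it separates the transcripts that rose from those that fell, with capitals for 10 bases within the stretch that the mitochondrial termination factor MTERF1 is known to bind in human mitochondria.
mt-Tl1: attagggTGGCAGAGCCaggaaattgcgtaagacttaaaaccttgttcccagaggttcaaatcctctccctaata
The match of these letters is a description and no binding was measured. *mt-Tl1* itself was at 3.04, 2.82 and 2.53 CPM in Veh and at 0.161, 0.102 and 0.158 CPM with HC3 (log2 fold change -4.26, SE 0.451, FDR = 3.38e-07). Beyond it, *mt-Nd1* fell from 1993, 1759.7 and 1630.4 CPM to 176, 141 and 152 CPM (log2 fold change -3.52, SE 0.139, FDR = 4.52e-13), one of the smaller falls among the mRNAs. In RSM, by contrast, *mt-Tl1* had a log2 fold change of 0.44, and HC3 lay below RSM (log2 difference -4.70, SE 0.437, FDR = 4.85e-07).

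**Figure D2:**
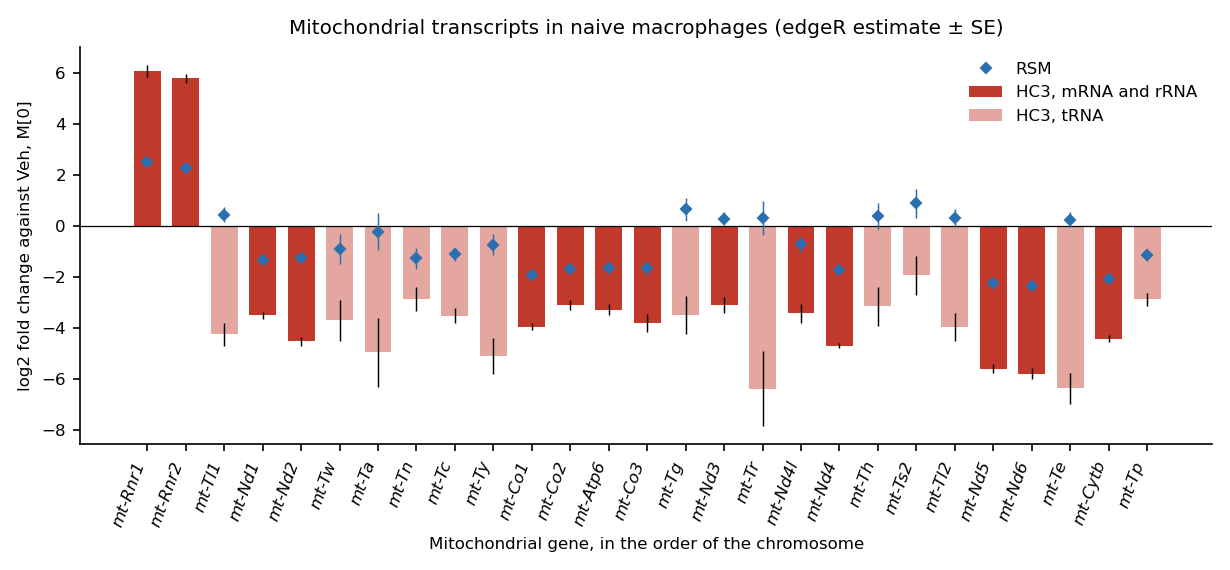
Bars give the log2 fold change of HC3 against Veh in M[0] for each tested mitochondrial gene, in the order of the chromosome, with dark bars for mRNAs and rRNAs, pale bars for tRNAs and lines for the SE, and blue diamonds give the same for RSM. Only the first pair of genes, *mt-Rnr1* and *mt-Rnr2*, rises with HC3, and every bar from *mt-Tl1* onward points down.

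Few nuclear genes for the same organelle were called. Of 73 nuclear respiratory chain subunits none reached the fold threshold, since their log2 fold changes ran from -0.80 to 0.91 with a median of 0.06. By the FDR alone 10 of the 73 were higher and 7 lower, smaller shares than the 22.6% and 21.5% of all tested genes. The muscle form *Cox6a2*, a nuclear subunit of complex IV outside this list, rose with a log2 fold change of 5.94. The complex IV subunit *Cox4i1* was at 188, 216 and 211 CPM in Veh and 197, 214 and 231 CPM with HC3, and the complex V subunit *Atp5b* at 478, 495 and 497 and 644, 601 and 622 CPM (log2 fold change 0.34, SE 0.0490, FDR = 1.32e-05). Of 31 genes for mitochondrial transcription, mtDNA copying and RNA processing, 1 was called lower and none higher (median 0.14). That gene was *Polg2*, the accessory subunit of the mtDNA polymerase (log2 fold change -1.04, SE 0.159, FDR = 2.84e-05), and its log2 fold change was -0.92 without Veh replicate 1, under the threshold. *Lrpprc*, which stabilizes mitochondrial mRNAs, was at 84.3, 74.9 and 78.2 CPM in Veh and 120.5, 118 and 109.9 CPM with HC3 (log2 fold change 0.55, SE 0.0596, FDR = 4.32e-07).

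Genes of the mitochondrial stress response were called in 1 direction. Of 18 tested, 5 were called higher (27.8%) and none lower, against 5.93% of all genes called higher. The stress cytokine gene *Gdf15* rose from 13.9, 13.6 and 13.9 CPM to 101, 140.3 and 125 CPM (log2 fold change 3.14, SE 0.185, FDR = 1.18e-10). *Atf5*, a transcription factor of the mitochondrial unfolded protein response, rose from 49.4, 46.1 and 54.2 CPM to 319, 355 and 357 CPM (log2 fold change 2.78, SE 0.0944, FDR = 7.32e-14). The matrix chaperone *Hspa9* (1.95), the protease *Lonp1* (1.32) and the co-chaperone *Dnaja3* (1.21) were also called. The chaperonin gene *Hspd1* lay just under the threshold (log2 fold change 0.997, SE 0.0926, FDR = 5.97e-08), was called without Veh replicate 1 (1.07) or HC3 replicate 3 (1.09), and shares 71.1% of its transcript with pseudogenes. Of 15 genes for mitophagy, fusion and fission, the autophagy receptors *Sqstm1* (log2 fold change 1.77, SE 0.0634, FDR = 1.37e-13) and *Optn* (log2 fold change 1.18, SE 0.0879, FDR = 3.01e-09) were called higher, while the mitophagy receptor *Bnip3l* was at 172, 168 and 159 CPM in Veh and 140.4, 146 and 128 CPM with HC3.

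The ISR held many genes that rose. Of 22 genes, 11 were called higher and none lower, with a median of 1.08. *Trib3*, a pseudokinase induced by ATF4 and CHOP (chr2:152337422-152344032, - strand), rose from 2.49, 3.70 and 3.76 CPM to 297, 319.8 and 329 CPM (log2 fold change 6.57, SE 0.121, FDR = 2.18e-17). The CHOP gene *Ddit3* rose from 14.5, 16.3 and 15.3 to 148, 165 and 151 CPM (log2 fold change 3.33, SE 0.0936, FDR = 9.62e-15). *Ppp1r15a*, whose product GADD34 recruits a phosphatase to eIF2α, rose from 22.6, 27.5 and 23.4 to 141, 150.2 and 153 CPM (log2 fold change 2.60, SE 0.0899, FDR = 8.09e-14). Among targets, the glutathione-degrading enzyme *Chac1* rose from 0.995, 0.764 and 0.807 CPM to 15.0, 18.9 and 18.2 CPM (log2 fold change 4.33, SE 0.226, FDR = 1.93e-11). Asparagine synthetase *Asns* rose from 36.8, 27.1 and 31.5 CPM to 174, 165 and 154 CPM (log2 fold change 2.37, SE 0.101, FDR = 1.51e-12). *Sesn2*, a leucine sensor of the mTORC1 pathway, rose from 21.3, 25.0 and 26.0 CPM to 93.8, 114 and 109 CPM (log2 fold change 2.13, SE 0.111, FDR = 2e-11). *Atf3*, a stress factor that is often induced with them, was at 352, 395 and 358 CPM in Veh and 377, 371 and 388 CPM with HC3 (log2 fold change 0.04, SE 0.0753, FDR = 0.71). The translation repressor *Eif4ebp1* was not called (log2 fold change 0.95, SE 0.150, FDR = 4.31e-05), and without Veh replicate 3 it was (1.10).

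Genes that supply amino acids and charge tRNAs also held many calls upward. Of 20 cytosolic aminoacyl-tRNA synthetases, 8 were called higher and 16 passed the FDR alone upward, with none lower by either rule and a median of 0.87. Alanyl-tRNA synthetase *Aars* rose from 126, 121 and 130.1 CPM to 490.3, 500.4 and 502 CPM (log2 fold change 1.99, SE 0.0562, FDR = 9.62e-15). The glutamyl-prolyl enzyme *Eprs* rose from 167, 134 and 146 to 522, 482 and 484 CPM (log2 fold change 1.74, SE 0.0735, FDR = 1.26e-12) and the seryl enzyme *Sars* from 95.6, 93.7 and 90.7 to 281, 291 and 266 CPM (log2 fold change 1.58, SE 0.0577, FDR = 1.68e-13). None of the 17 mitochondrial synthetases reached the fold threshold (-0.39 to 0.73, median 0.31), and 8 were higher by the FDR alone. Of 18 amino acid transporters, 7 were called higher (38.9%) and 1 lower. The cystine importer *Slc7a11* rose from 4.42, 5.87 and 4.03 CPM to 63.5, 102 and 56.1 CPM (log2 fold change 3.95, SE 0.268, FDR = 8.07e-10), with the second HC3 library well above the other two. The neutral amino acid carriers *Slc1a4* (2.65) and *Slc7a5* (2.64) rose too, whereas *Slc7a7*, a carrier for cationic amino acids, fell from 25.0, 23.4 and 24.3 to 8.40, 8.30 and 9.05 CPM (log2 fold change -1.498, SE 0.105, FDR = 1.29e-09). In serine synthesis and the folate cycle, 5 of 14 genes were called higher and 1 lower. *Phgdh*, the entry enzyme of serine synthesis, rose from 17.6, 10.1 and 20.2 CPM to 81.5, 86.7 and 83.8 CPM (log2 fold change 2.39, SE 0.170, FDR = 1.58e-09), although 84.3% of its transcript is shared with a pseudogene. The mitochondrial folate enzyme *Mthfd2* rose from 37.1, 30.4 and 32.8 CPM to 175, 169.5 and 164 CPM (log2 fold change 2.34, SE 0.0704, FDR = 2.41e-14). The cytosolic enzyme *Aldh1l1* fell from 14.7, 16.5 and 15.0 to 5.62, 4.51 and 4.998 CPM (log2 fold change -1.61, SE 0.134, FDR = 1.3e-08). *Shmt2* was called at 1.03 and not without Veh replicate 1 or 2 (0.98 in both).

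Promoters of these genes were searched for the core of the C/EBP-ATF response element (CARE, TGATGNAA, either strand), the element that ATF4 and its partners are known to bind. RefSeq promoters of GRCm38.p6, from 250 bases before to 50 bases after a start, were matched by symbol for 10544 of the tested genes. A CARE match lay in the promoter of 4 of 10 ISR genes called higher with a promoter entry (*Asns*, *Chac1*, *Nupr1* and *Trib3*), of 3 of 5 synthetases called higher (*Aars*, *Gars* and *Yars*) and of 2 of 6 transporters called higher (*Slc1a4* and *Slc7a11*). It lay in 0 of 4 serine and folate genes called higher, and the transporter called lower, *Slc7a7*, held it. By comparison it lay in 2.87% of all tested genes, in 4.96% of the 605 called higher, in 4.08% of the 612 called lower and in 4.51% of all 27025 genes with a promoter. The part before the start is shown for 3 of them, since these carry the match and rose most in their lists among genes with a match upstream, with the match in capitals. They lie at chr2:119350992-119351241 (+ strand), chr6:7693210-7693459 (- strand) and chr3:50443614-50443863 (- strand).
Chac1: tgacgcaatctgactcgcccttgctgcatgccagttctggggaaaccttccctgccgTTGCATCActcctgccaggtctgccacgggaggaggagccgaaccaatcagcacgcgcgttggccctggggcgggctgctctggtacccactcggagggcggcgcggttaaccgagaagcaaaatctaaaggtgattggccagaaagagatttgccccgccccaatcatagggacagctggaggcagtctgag
Asns: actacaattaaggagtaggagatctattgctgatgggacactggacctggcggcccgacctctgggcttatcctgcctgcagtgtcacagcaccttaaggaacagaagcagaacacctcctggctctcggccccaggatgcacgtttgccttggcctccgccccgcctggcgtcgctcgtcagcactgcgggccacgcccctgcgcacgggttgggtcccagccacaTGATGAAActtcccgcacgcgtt
Slc7a11: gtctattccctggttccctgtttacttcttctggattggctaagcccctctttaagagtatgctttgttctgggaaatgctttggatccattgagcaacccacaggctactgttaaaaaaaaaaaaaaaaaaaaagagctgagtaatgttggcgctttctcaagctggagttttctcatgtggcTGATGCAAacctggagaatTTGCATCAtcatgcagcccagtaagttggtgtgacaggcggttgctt
The matches begin 193 bases before the start in *Chac1* and 23 bases before it in *Asns*, and *Slc7a11* holds a pair of them at 66 and 47 bases before the start, on opposite strands. In *Trib3* the match begins 14 bases after the start. Such a match is a description of letters, and neither binding nor activity was measured. The ISR list was drawn up from genes known for that response, and uncalled members of these lists were not counted apart. The shares of matches therefore cannot show what HC3 did.

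The unfolded protein response of the endoplasmic reticulum held fewer calls than the ISR list, in which *Trib3*, *Ddit3* and *Ppp1r15a* were counted. Of 31 genes (median 0.17), 13 were higher by the FDR alone and 3 lower, where 22.6% and 21.5% of all tested genes were. With the fold threshold added, 2 were called higher (6.45%, against 5.93% of all tested genes) and none lower. They were the sensor *Ern1*, which encodes IRE1α (83.7, 90.6 and 86.3 CPM in Veh and 336, 351 and 336 CPM with HC3), and the oxidase *Ero1l* (53.8, 47.0 and 43.9 and 171, 182 and 166 CPM, log2 fold change 1.84, SE 0.0881, FDR = 6.55e-12), which is itself a CHOP target. The chaperone BiP gene *Hspa5* was at 983, 979 and 870.3 CPM in Veh and 1157, 1217 and 1000 CPM with HC3 (log2 fold change 0.25, SE 0.109, FDR = 0.0704). *Atf6*, the sensor released from the membrane under stress, was at 233, 230.0 and 218 and 279.8, 280.3 and 260.0 CPM (log2 fold change 0.27, SE 0.0616, FDR = 0.00158).

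Oxidant defence genes controlled by NRF2 rose in part. Of 21 genes, 5 were called higher (23.8%) and none lower, and 14 passed the FDR alone upward (median 0.68). *Gclm*, the modifier subunit of the glutathione-synthesizing ligase, rose from 131, 126 and 129 CPM to 571, 648 and 623 CPM (log2 fold change 2.25, SE 0.0976, FDR = 1.78e-12). The glutathione transferase *Gsta3* rose from 1.27, 1.70 and 0.860 CPM to 26.1, 30.1 and 28.3 CPM (log2 fold change 4.46, SE 0.194, FDR = 1.85e-12). Sulfiredoxin *Srxn1*, which repairs oxidized peroxiredoxins, rose from 135, 163 and 153 CPM to 416, 422 and 403 CPM (log2 fold change 1.46, SE 0.0691, FDR = 5.72e-12). Peroxiredoxin *Prdx1* was not called, with a log2 fold change of 0.73. All 4 genes called higher that had a promoter entry (*Gclm*, *Gsta3*, *Me1* and *Srxn1*) held the antioxidant response element core TGACNNNGC on either strand, against 17.0% of tested genes, 121 of the 605 called higher and 13.99% of all genes with a promoter. No CARE match overlapped a match of this core in any promoter. The *Gclm* promoter before its start (chr3:122245307-122245556, + strand) is shown as the example, with the match in capitals.
Gclm: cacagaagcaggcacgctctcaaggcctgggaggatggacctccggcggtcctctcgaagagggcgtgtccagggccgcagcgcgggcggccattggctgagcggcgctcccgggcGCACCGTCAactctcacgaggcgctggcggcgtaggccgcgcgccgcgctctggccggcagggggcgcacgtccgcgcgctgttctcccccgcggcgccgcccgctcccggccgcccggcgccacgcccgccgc
The match begins 134 bases before the start. Since the list holds known NRF2 targets and its uncalled members were not counted apart, the share of matches cannot show what HC3 did. In iron handling, the mitochondrial iron importer *Slc25a37* rose from 58.0, 54.6 and 55.1 to 148, 167 and 156 CPM (log2 fold change 1.49, SE 0.0615, FDR = 8.97e-13), and both *Ncoa4*, the ferritin autophagy receptor (log2 fold change -1.17, SE 0.119, FDR = 2e-07), and *Hfe* (log2 fold change -1.59, SE 0.0948, FDR = 1.38e-10) fell. Ferritin heavy chain *Fth1* was at 9116, 10999 and 8985 CPM in Veh and 14656, 19473 and 17136 CPM with HC3 (log2 fold change 0.82, SE 0.0981, FDR = 1.71e-06), under the fold threshold.

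**Figure D3:**
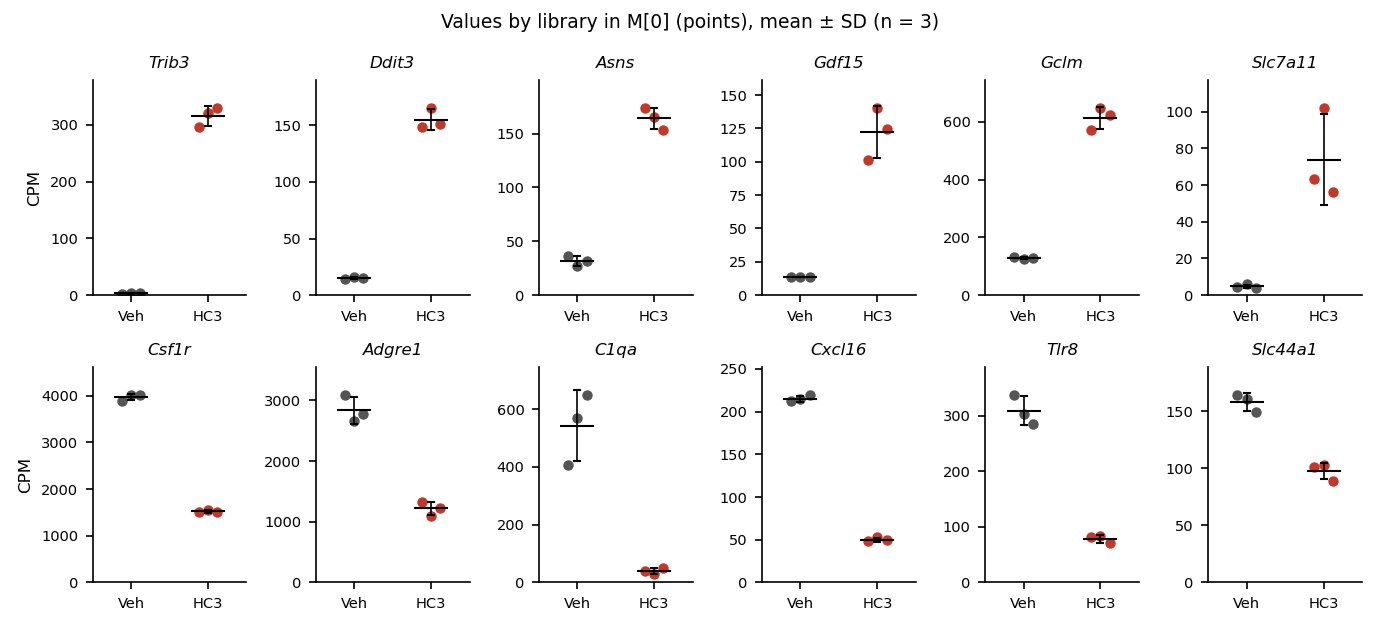
Points give the CPM of each library for 12 named genes in Veh and HC3 M[0], with the mean and SD over 3 libraries, and each panel has its own axis from 0. In all 12 panels the HC3 libraries lie apart from the Veh libraries, above them for the 6 stress and oxidant defence genes and below them for the 6 macrophage and transport genes. The panels are examples picked from the named genes, and the groups did not overlap in 52.2% of all tested genes.

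Genes of choline and PC metabolism, the pathway that HC3 targets, held calls in both directions, as did all tested genes. Of 55 listed genes 42 passed the count filter (median -0.11). Of these, 4 were called higher and 4 lower, 9.52% each, against 5.93% and 6.11% of all tested genes. By the FDR alone 11 were higher and 17 lower, where 22.6% and 21.5% of all tested genes were. Among transporters, *Slc44a1* (chr4:53440413-53622478, + strand), which encodes a main choline transporter of macrophages, was at 164, 161 and 149.7 CPM in Veh and at 101, 103 and 89.1 CPM with HC3 (log2 fold change -0.69, SE 0.0957, FDR = 9.03e-06), with every HC3 library below every Veh library but the change under the fold threshold. *Slc44a2* was at 104.2, 112 and 99.3 and 83.2, 99.2 and 85.7 CPM (log2 fold change -0.24, SE 0.0942, FDR = 0.0494). *Flvcr1*, a more recently described choline importer, was at 132, 143 and 123 CPM in Veh and 186, 219.7 and 176 CPM with HC3 (log2 fold change 0.55, SE 0.119, FDR = 0.000988). *Slc22a4*, a carrier for ergothioneine and related cations, lay just under the threshold (log2 fold change 1.000, SE 0.126, FDR = 3.15e-06) and was called without Veh replicate 1 (1.06), HC3 replicate 1 (1.09) or Veh replicate 2 (1.03).

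Along the CDP-choline pathway, choline kinase *Chka* was at 24.8, 21.5 and 24.7 CPM in Veh and 22.4, 23.7 and 24.5 CPM with HC3 (log2 fold change -0.01, SE 0.0925, FDR = 0.949). *Pcyt1a*, which encodes the rate-limiting enzyme CCTα, was at 200.1, 209 and 193 and 148, 152 and 140.2 CPM (log2 fold change -0.45, SE 0.0969, FDR = 0.000857), and the final enzymes *Cept1* (-0.11) and *Chpt1* (-0.02) were not called. Its paralogue *Pcyt1b*, near the detection limit at 1.44, 1.76 and 0.699 CPM in Veh, was called lower (log2 fold change -1.20, SE 0.463, FDR = 0.0429), and this call was lost when any library except Veh replicate 3 was left out, with log2 fold changes of -1.24 to -0.92. *Pemt*, which makes PC by methylating phosphatidylethanolamine, rose from 1.22, 0.999 and 1.08 CPM to 2.62, 3.99 and 2.16 CPM (log2 fold change 1.41, SE 0.271, FDR = 0.000322). Choline dehydrogenase *Chdh*, which oxidizes choline to betaine, had 0 counts in the 3 Veh libraries and 56 in the 3 HC3 libraries, at least 17.5-fold higher when 3 counts are set as the floor over the Veh group. A floor of this kind covers counting error only.

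Lipid-remodelling genes held the other calls. The arachidonate-releasing phospholipase *Pla2g4a* rose from 19.1, 20.6 and 18.9 to 60.2, 57.1 and 49.4 CPM (log2 fold change 1.51, SE 0.0767, FDR = 1.39e-11), while the lysosomal phospholipase *Pla2g15* fell from 278, 310.4 and 307 to 141, 139 and 137 CPM (log2 fold change -1.10, SE 0.0659, FDR = 1.39e-10). *Lpcat2*, which makes PC and platelet-activating factor from lyso precursors, fell from 69.2, 70.6 and 66.8 CPM to 19.0, 24.2 and 20.3 CPM (log2 fold change -1.70, SE 0.121, FDR = 1.6e-09). The phosphatidate phosphatase *Lpin2* was called at -1.01 and not without Veh replicate 2 (-0.97) or HC3 replicate 3 (-0.98), and *Lpin3* rose from 0.553, 0.940 and 1.13 to 2.25, 2.87 and 3.26 CPM. The 4 genes called lower were 2 without Veh replicate 2 or HC3 replicate 3. In sphingolipid metabolism 1 of 20 genes was called, *Samd8*, a relative of the sphingomyelin synthases, which rose from 66.0, 60.1 and 56.9 to 147, 151 and 129 CPM (log2 fold change 1.22, SE 0.109, FDR = 3.58e-08).

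Sterol synthesis genes leaned down, with 5 of 24 called lower and none higher (median -0.37). The sterol carrier *Stard4* fell from 35.4, 30.0 and 35.1 CPM to 15.4, 9.99 and 11.2 CPM (log2 fold change -1.46, SE 0.146, FDR = 1.59e-07) and the SREBP regulator *Insig1* from 66.7, 62.5 and 65.8 CPM to 30.8, 30.1 and 30.6 CPM (log2 fold change -1.09, SE 0.0663, FDR = 1.69e-10). The 5 calls were 3 without Veh replicate 1, HC3 replicate 2 or Veh replicate 3. The cholesterol carrier *Apoe* also fell, from 3133, 6483 and 6405 CPM to 1465, 2285 and 2221 CPM (log2 fold change -1.42, SE 0.244, FDR = 0.000102), with the first Veh library far below the other two. The transporter gene *Abcg3* fell from 5.86, 7.81 and 6.51 to 0.910, 1.13 and 1.10 CPM (log2 fold change -2.67, SE 0.272, FDR = 1.98e-07). Among fatty acid genes the elongase *Elovl6* (log2 fold change 1.61, SE 0.114, FDR = 1.5e-09) and malic enzyme *Me1* (log2 fold change 1.22, SE 0.106, FDR = 2.56e-08) rose, with 60.1% of *Me1* shared with pseudogenes. Among 19 genes of lipid uptake and storage 4 were called higher and none lower, including the droplet protein *Hilpda* (log2 fold change 1.14, SE 0.141, FDR = 2.51e-06) and the monoacylglycerol lipase *Mgll* (log2 fold change 1.17, SE 0.193, FDR = 7.11e-05). The fatty acid-binding protein gene *Fabp5* was called at 1.02 and fell under the threshold without Veh replicate 1 (0.99), HC3 replicate 2 (0.94) or Veh replicate 3 (0.96).

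Genes that define the macrophage lineage were often lower with HC3. Of 23 tested, 10 were called lower (43.5%) and 1 higher, 19 passed the FDR alone downward, and their summed level was 26183 to 27472 CPM in Veh and 12811 to 13858 CPM with HC3. The summed level of the stromal markers moved the other way, from 669.7 to 1157 CPM in Veh to 1932 to 2590.0 CPM with HC3, and its part in the result was not tested. *Csf1r* fell from 3888, 4007 and 4005 CPM to 1507, 1545 and 1504 CPM (log2 fold change -1.39, SE 0.0660, FDR = 6.42e-12), while its ligand gene *Csf1* was the 1 called higher, from 153, 86.3 and 147 CPM to 480.0, 337 and 395 CPM (log2 fold change 1.65, SE 0.278, FDR = 8.57e-05), with replicate 2 lowest in both groups. *Adgre1*, which encodes F4/80, fell from 3083, 2653 and 2777 CPM to 1321, 1102 and 1232 CPM (log2 fold change -1.22, SE 0.0700, FDR = 8.09e-11). Lysozyme *Lyz2* fell from 11760.2, 12143 and 10996 CPM to 4853, 5810.1 and 4548 CPM (log2 fold change -1.20, SE 0.124, FDR = 2.39e-07). The lineage factor *Maf* fell from 499, 514 and 551 CPM to 139, 159.7 and 149.6 CPM (log2 fold change -1.80, SE 0.0800, FDR = 2.25e-12). The efferocytosis kinase *Mertk* fell from 124, 132 and 123 to 44.5, 57.5 and 48.6 CPM (log2 fold change -1.33, SE 0.125, FDR = 7.01e-08), and *Aif1*, which encodes IBA1, from 27.2, 30.4 and 26.7 to 3.64, 2.92 and 2.58 CPM (log2 fold change -3.20, SE 0.177, FDR = 4.72e-11). The LPS co-receptor *Cd14* (-1.41) and *Itgam*, which encodes CD11b (-1.94), were called lower too, but 73.8% of the *Itgam* transcript is shared with another annotated gene.

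Not all lineage genes fell by this much. The master factor *Spi1*, which encodes PU.1, was at 355, 377 and 399 CPM in Veh and 242, 255 and 277 CPM with HC3 (log2 fold change -0.55, SE 0.0867, FDR = 4.32e-05). *Cd68*, a lysosomal glycoprotein, was at 1488, 1353 and 1328 and 977, 884 and 973 CPM (log2 fold change -0.56, SE 0.0717, FDR = 3.97e-06), and *Cebpa* at 211, 238 and 318 and 201, 226 and 288 CPM (log2 fold change -0.10, SE 0.183, FDR = 0.684). *Fcgr3* was called at -1.08 and not without HC3 replicate 3 (-0.98), and *Fcgr1* was not called at -0.93 but was without Veh replicate 1, by a narrow margin.

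Surface and secreted products of macrophages followed the same direction in several lists. Of 20 lectins and scavenger receptors, 7 were called lower and 1 higher. The mannose receptor *Mrc1* fell from 475, 462 and 433 CPM to 155, 135 and 113 CPM (log2 fold change -1.76, SE 0.121, FDR = 9.06e-10). The haemoglobin receptor *Cd163* fell from 21.01, 17.0 and 16.4 CPM to 2.03, 3.38 and 2.21 CPM (log2 fold change -2.83, SE 0.194, FDR = 9.47e-10), and the scavenger receptor *Stab1* from 1394, 1438 and 1669 to 277, 261 and 352 CPM (log2 fold change -2.34, SE 0.144, FDR = 1.96e-10). *Clec4e*, which encodes the mycobacterial glycolipid receptor Mincle, rose from 23.998, 33.1 and 23.1 CPM to 101, 133 and 101 CPM (log2 fold change 2.07, SE 0.212, FDR = 2.27e-07). Of 10 complement genes, 8 were called lower and none higher, with a median of -1.60. The 3 chains of C1q fell together. *C1qa* went from 407, 571 and 648 CPM to 39.8, 30.1 and 50.3 CPM (log2 fold change -3.76, SE 0.191, FDR = 1.39e-11), *C1qb* from 1506, 1882 and 1895 to 242, 245 and 271 CPM (log2 fold change -2.80, SE 0.103, FDR = 1.77e-13) and *C1qc* from 958, 1277 and 1349.8 to 205, 200.4 and 235 CPM (log2 fold change -2.48, SE 0.124, FDR = 1.12e-11).

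Genes of innate sensing held calls downward and none upward. Of 20 toll-like receptor and inflammasome genes, 9 were called lower (45.0%) and none higher, with a median of -0.99. *Tlr8*, a receptor for RNA in endosomes, fell from 337, 304 and 286 CPM to 81.3, 83.4 and 70.4 CPM (log2 fold change -1.98, SE 0.125, FDR = 2.8e-10). *Tlr1*, a lipopeptide receptor, fell from 64.2, 55.6 and 52.6 CPM to 14.3, 14.2 and 11.6 CPM (log2 fold change -2.10, SE 0.124, FDR = 1.25e-10) and *Tlr9*, a receptor for DNA, from 42.2, 44.7 and 41.1 to 12.4, 11.0 and 10.7 CPM (log2 fold change -1.91, SE 0.109, FDR = 7.91e-11). The LPS receptor *Tlr4* was at 160.5, 155 and 143 CPM in Veh and 111, 105 and 92.4 CPM with HC3 (log2 fold change -0.57, SE 0.105, FDR = 0.000202). Of 30 chemokines and receptors, 11 were called lower and none higher, with a median of -0.79 that ranged from -1.08 to -0.46 when single libraries were left out. The ligand *Cxcl16* fell from 212, 214 and 219 CPM to 48.3, 52.7 and 49.5 CPM (log2 fold change -2.10, SE 0.0939, FDR = 2.52e-12), with 18.3% of its exons overlapping a gene of the other strand. *Ccl9*, a ligand of CCR1, fell from 554, 650.0 and 538 CPM to 123, 135 and 113 CPM (log2 fold change -2.23, SE 0.126, FDR = 6.86e-11). The receptors *Cx3cr1* (31.8, 29.5 and 30.9 to 4.17, 3.02 and 3.10 CPM) and *Ccr3* (56.8, 46.8 and 47.8 to 5.72, 4.56 and 4.63 CPM) fell, with log2 fold changes of -3.16 and -3.34.

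Cytokine genes were mixed, with 3 of 27 called higher and 4 lower. *Il1b* fell from 6.47, 5.76 and 3.60 CPM to 0.268, 0.256 and 0.316 CPM (log2 fold change -4.20, SE 0.557, FDR = 5.7e-06). The anti-inflammatory *Il10* fell from 4.81, 4.35 and 4.14 to 0.803, 0.461 and 0.684 CPM (log2 fold change -2.76, SE 0.307, FDR = 6.27e-07), and the receptors *Il10ra* (log2 fold change -1.79, SE 0.0906, FDR = 1.33e-11) and *Il6ra* (log2 fold change -1.47, SE 0.0926, FDR = 2.87e-10) fell as well. *Tgfb2* rose from 6.41, 3.29 and 7.69 to 21.4, 12.8 and 19.0 CPM (log2 fold change 1.61, SE 0.339, FDR = 0.000783). Of 12 costimulatory and checkpoint genes, 3 were called higher and 1 lower. *Cd274*, which encodes PD-L1, rose from 27.3, 33.7 and 26.7 CPM to 169.7, 223 and 158 CPM (log2 fold change 2.65, SE 0.164, FDR = 2.18e-10). The CD28 ligand *Cd86* rose from 10.5, 15.1 and 10.6 CPM to 51.7, 79.1 and 52.7 CPM (log2 fold change 2.35, SE 0.279, FDR = 1.5e-06), while the checkpoint receptor *Vsir* fell from 682, 866 and 843 CPM to 316, 309 and 317 CPM (log2 fold change -1.34, SE 0.0840, FDR = 2.52e-10).

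Antigen presentation split by class. Of 8 MHC class II genes, 7 were called lower (87.5%) and none higher, with a median of -1.44, while the 9 class I genes ran from -0.66 to 0.59 (median 0.07). The class II transactivator *Ciita* fell from 7.41, 11.5 and 8.28 CPM to 1.66, 2.15 and 1.32 CPM (log2 fold change -2.40, SE 0.346, FDR = 1.6e-05). *H2-Eb1*, a class II beta chain, fell from 55.7, 104.0 and 68.9 CPM to 22.6, 32.4 and 19.7 CPM (log2 fold change -1.61, SE 0.238, FDR = 2.01e-05) and the peptide-loading chain *H2-DMa* from 10.3, 16.2 and 11.9 to 3.26, 5.12 and 3.68 CPM (log2 fold change -1.66, SE 0.208, FDR = 2.86e-06). The class I gene *H2-D1* was at 2005, 2619 and 2426 CPM in Veh and 2694, 3112 and 3173 CPM with HC3 (log2 fold change 0.35, SE 0.0937, FDR = 0.00532). In the 3 Veh libraries, class II genes varied in level, with the second library highest for each of the 3 named.

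Interferon-stimulated genes held many calls downward. Of 33 tested, 18 were called lower (54.5%) and 1 higher, with a median of -1.08, and the count lower was 11 without HC3 replicate 3. *Mx1* fell from 2.54, 4.17 and 3.71 CPM to 0.375, 0.615 and 0.105 CPM (log2 fold change -3.22, SE 0.779, FDR = 0.00245), and *Ifit3* from 8.46, 11.98 and 8.50 CPM to 2.51, 3.02 and 1.42 CPM (log2 fold change -2.05, SE 0.541, FDR = 0.00465), both encoding antiviral effectors. *Ifit1* was called (log2 fold change -1.85, SE 0.627, FDR = 0.0228), and its call was lost without Veh replicate 1 (-1.73), HC3 replicate 1 (-1.93), Veh replicate 2 (-1.75) or HC3 replicate 3 (-1.62), although the change stayed past the fold threshold. Among guanylate-binding genes, *Gbp3* (-2.05), *Gbp7* (-1.56) and *Igtp* (-1.17) fell, whereas *Gbp8* rose from 1.94, 2.41 and 0.860 CPM to 17.8, 26.1 and 14.6 CPM (log2 fold change 3.50, SE 0.348, FDR = 1.47e-07). *Oas3*, a sensor of double-stranded RNA, was not called at 115, 133 and 116 CPM in Veh and 61.5, 73.7 and 60.6 CPM with HC3. The core of the interferon-stimulated response element, a pair of GAAA letters with a gap of 2 bases searched on either strand, lay in the promoters of 8 of the 14 genes called lower with an entry (*Ddx58*, *Gbp3*, *Gbp5*, *Gbp7*, *Ifit1*, *Ifit3*, *Ifit3b* and *Igtp*). Among all genes called lower 9.48% held it, against 3.802% of those called higher, 3.61% of those not called and 3.99% of all genes with a promoter, and 8 of the 32851 promoters held a match of it that overlaps a CARE match. The sequence before the start of *Ifit3* (chr19:34583279-34583528, + strand) is shown because it holds a pair of matches, in capitals.
Ifit3: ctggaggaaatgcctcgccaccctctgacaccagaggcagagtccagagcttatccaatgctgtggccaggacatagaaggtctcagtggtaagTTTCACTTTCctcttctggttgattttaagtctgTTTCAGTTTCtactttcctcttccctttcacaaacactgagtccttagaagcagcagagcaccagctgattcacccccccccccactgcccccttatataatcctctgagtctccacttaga
The matches begin 156 and 122 bases before the start. The interferon list was drawn up from genes known for that response, and its uncalled members were not counted apart. The share of matches in this list therefore cannot show what HC3 did.

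Signalling genes showed further calls downward. Of 29 tyrosine kinases, phosphatases, inhibitory receptors and adaptors, 6 were called lower (20.7%) and none higher, and 21 passed the FDR alone downward (median -0.73). The phosphatase SHP-1 gene *Ptpn6* fell from 326, 332 and 326 CPM to 118, 114 and 112 CPM (log2 fold change -1.51, SE 0.0594, FDR = 4.09e-13). The receptor-type phosphatase *Ptpro* fell from 118, 124 and 106 to 32.2, 36.8 and 33.2 CPM (log2 fold change -1.77, SE 0.150, FDR = 1.79e-08). The Src-family kinase *Lyn* fell from 298, 278 and 265 to 123, 125 and 107 CPM (log2 fold change -1.25, SE 0.0901, FDR = 1.89e-09), and the PI3-kinase subunit *Pik3cd* from 134, 154 and 149.5 to 61.5, 58.1 and 65.2 CPM (log2 fold change -1.24, SE 0.0827, FDR = 6.2e-10). For *Lyn*, 37.6% of the transcript is shared with other annotated genes. The kinase *Syk* was at 484, 575 and 503 CPM in Veh and 383, 438 and 406 CPM with HC3 (log2 fold change -0.35, SE 0.0924, FDR = 0.0049). Of 23 receptors for purines, lipids and metabolites, 8 were called lower and 2 higher. The UDP receptor *P2ry6* fell from 234, 245 and 244 CPM to 69.9, 67.6 and 74.1 CPM (log2 fold change -1.77, SE 0.0653, FDR = 1.86e-13). The oxysterol receptor *Gpr183* fell from 32.3, 32.4 and 32.0 to 9.52, 9.88 and 8.996 CPM (log2 fold change -1.77, SE 0.117, FDR = 6e-10). The prostaglandin E2 receptor *Ptger2* rose from 4.37, 7.58 and 7.15 to 20.3, 22.4 and 22.4 CPM (log2 fold change 1.77, SE 0.147, FDR = 1.3e-08). In the enzymes of that pathway, *Ptgs2*, the inducible cyclooxygenase, rose from 6.19, 5.99 and 7.31 CPM to 39.0, 51.8 and 36.7 CPM (log2 fold change 2.71, SE 0.171, FDR = 2.88e-10), while the constitutive *Ptgs1* fell from 63.8, 58.6 and 63.7 CPM to 18.7, 18.5 and 19.2 CPM (log2 fold change -1.72, SE 0.0977, FDR = 7.08e-11).

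Growth factors and early response genes went both ways. Of 16 growth factors, 3 were called higher and 5 lower. *Vegfa* rose from 65.1, 88.2 and 78.8 CPM to 174, 218 and 214 CPM (log2 fold change 1.38, SE 0.100000, FDR = 1.96e-09). The EGF receptor ligand *Hbegf* rose from 3.26, 3.23 and 3.39 to 13.001, 11.9 and 11.6 CPM (log2 fold change 1.88, SE 0.149, FDR = 7e-09). *Gas6*, a ligand of MERTK, fell from 503, 598 and 596 CPM to 205, 239 and 224 CPM (log2 fold change -1.35, SE 0.0892, FDR = 5.81e-10) and *Pdgfb* from 169, 200.2 and 208 to 63.5, 71.2 and 73.9 CPM (log2 fold change -1.47, SE 0.105, FDR = 1.62e-09). Of 25 immediate early factors, 5 were called higher and 2 lower. *Klf4* rose from 12.4, 10.3 and 12.7 CPM to 83.0, 78.8 and 92.2 CPM (log2 fold change 2.84, SE 0.0930, FDR = 4.88e-14), whereas *Egr3* (-1.18) and *Dusp6* (-1.07) fell. The 5 called higher were 3 without Veh replicate 1 or HC3 replicate 3, and the 2 called lower were 4 without HC3 replicate 3. *Dusp4* was among these 5 at 1.001 and kept its call in 4 of 15 alternatives, over which it ran from 0.94 to 1.07. It was under the threshold with the replicate block, with DESeq2 and without HC3 replicate 1, HC3 replicate 3 or Veh replicate 1, among others. Among p53 targets and BCL2 genes, *Gadd45a* rose (log2 fold change 2.19, SE 0.142, FDR = 4.3e-10) and *Sesn1* fell from 213, 231 and 215 CPM to 37.6, 41.9 and 30.9 CPM (log2 fold change -2.58, SE 0.118, FDR = 3.65e-12), opposite to its relative *Sesn2*. The survival factor *Mcl1* was called at -1.01 and not without HC3 replicate 1 (-0.98), Veh replicate 2 (-0.95) or HC3 replicate 3 (just short of the threshold).

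Many matrix genes rose, and so did some markers of stromal cells. Of 20 collagens and matrix proteins, 9 were called higher (45.0%) and 1 lower, with a median of 1.11. Tenascin *Tnc* rose from 61.0, 39.7 and 71.1 CPM to 212, 154 and 203 CPM (log2 fold change 1.72, SE 0.291, FDR = 8.83e-05). *Col18a1*, the source of endostatin, rose from 153, 187 and 203 CPM to 541, 397 and 623 CPM (log2 fold change 1.52, SE 0.181, FDR = 1.54e-06) and *Col3a1* from 44.3, 30.6 and 51.5 CPM to 125, 91.3 and 129.8 CPM (log2 fold change 1.45, SE 0.330, FDR = 0.00147). The laminin chain *Lama3* fell (log2 fold change -1.71, SE 0.268, FDR = 3.89e-05). Of 16 proteases and inhibitors 4 were called higher, among them *Timp1* (log2 fold change 1.38, SE 0.212, FDR = 3.3e-05). The sum of the collagen and matrix genes was 3418 to 4976 CPM in Veh and 6562 to 8412 CPM with HC3. Beside these, 3 of the 8 stromal markers tested were called higher, and the sum of the list was 669.7 to 1157 CPM in Veh and 1932 to 2590.0 CPM with HC3. The smooth muscle actin gene *Acta2* went from 224, 122 and 218 CPM to 928, 653 and 821 CPM (log2 fold change 2.09, SE 0.323, FDR = 3.4e-05) and *Col1a1* from 276, 202 and 333 to 569, 534 and 729 CPM (log2 fold change 1.17, SE 0.299, FDR = 0.00361). *Col1a2* was not called (log2 fold change 0.91, SE 0.306, FDR = 0.0214) but was without HC3 replicate 2 (1.04) or Veh replicate 3 (1.09). In all of *Tnc*, *Col3a1*, *Acta2*, *Col1a1* and *Col1a2*, replicate 2 was lowest in both groups. Of the other stromal markers, *Pdgfra* had 244 to 513 counts in Veh and 248 to 456 with HC3, and *Lum* had 0 counts in all 6 libraries. The part of stromal cells in the matrix result was not tested.

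Coagulation genes included some of the largest rises. Of 11, 4 were called higher and 1 lower. Factor V gene *F5* rose from 0.221, 0.529 and 0.699 CPM to 50.5, 75.1 and 52.9 CPM (log2 fold change 6.92, SE 0.291, FDR = 1.21e-12). Tissue factor *F3*, which starts the cascade, rose from 0.442, 0.940 and 0.914 CPM to 3.32, 5.58 and 4.10 CPM (log2 fold change 2.49, SE 0.307, FDR = 2.28e-06), and the transglutaminase *F13a1* fell from 3.93, 2.88 and 3.71 to 0.642, 0.973 and 0.947 CPM (log2 fold change -2.03, SE 0.402, FDR = 0.000431). Integrin genes were split, with 3 of 16 called higher and 3 lower. *Itgb3* (14.3, 16.9 and 12.1 to 36.1, 58.7 and 35.4 CPM, log2 fold change 1.59, SE 0.194, FDR = 2.03e-06) and *Itgb7* (log2 fold change 1.45, SE 0.178, FDR = 2.08e-06) rose, and *Itga9* (log2 fold change -1.82, SE 0.165, FDR = 4.6e-08) and *Itgal* (log2 fold change -1.17, SE 0.205, FDR = 0.000131) fell.

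By the FDR and fold threshold together, growth and housekeeping lists held no calls, or shares not far from those of all tested genes, 5.93% higher and 6.11% lower. The shares were 9.52% lower for mitosis and 10.5% higher for glycolysis. For lysosomal and autophagy genes they were 4.76% higher and 7.14% lower. The FDR alone was passed upward by 22.6% and downward by 21.5% of all tested genes. Replication and mitosis genes passed it only downward, and ribosomal protein and proteasome genes only upward. None of 27 replication genes reached the fold threshold (-0.97 to 0.37, median -0.40), although 15 passed the FDR alone downward and none upward, and *Pcna* was at 399.5, 423 and 424 CPM in Veh and 343, 309 and 326 CPM with HC3. Of 21 mitosis genes 2 were called lower, *Mki67* (log2 fold change -1.08, SE 0.176, FDR = 6.08e-05) and *Nusap1* (log2 fold change -1.10, SE 0.224, FDR = 0.000548), and neither was without Veh replicate 1 (-0.95 for both) or HC3 replicate 2 (-0.93 for both). Among 43 cytosolic ribosomal protein genes, 38 passed the FDR alone upward and none downward, with a median of 0.42 and a range of -0.02 to 0.66. For instance, *Rplp0* was at 907, 965 and 899 CPM in Veh and 1324, 1263 and 1259.8 CPM with HC3. Of 26 proteasome genes 13 passed the FDR alone upward (-0.09 to 0.84, median 0.18). In glycolysis 2 of 19 genes were called higher and none lower, the glucose transporter *Slc2a1* (40.1, 40.6 and 51.6 to 95.7, 96.4 and 109 CPM, log2 fold change 1.19, SE 0.0819, FDR = 1.04e-09) and the lactate exporter *Slc16a1* (1.06), the latter under the threshold without HC3 replicate 2 (by a narrow margin) or Veh replicate 3 (0.95). Among 42 lysosomal and autophagy genes, 2 were called higher and 3 lower, with the cholesterol exporter *Npc1* (log2 fold change 1.13, SE 0.0784, FDR = 1.13e-09) rising and the proteases *Lgmn* (log2 fold change -1.36, SE 0.0687, FDR = 1.26e-11) and *Ctsc* (log2 fold change -1.27, SE 0.104, FDR = 1e-08) falling. The 3 called lower were 5 without Veh replicate 1, and the 2 called higher were 1 without HC3 replicate 1, where *Ctsk* (1.07 with all libraries) fell just short of the threshold. Transcripts that share part of their length with other annotated genes included those of *Csf1r* (18.6%), *Cxcl16* (20.5%), *Sqstm1* (21.8%), *Gadd45a* (19.5%), *Aars* (23.1%), *Cox4i1* (20.1%), *Prdx1* (26.0%), *Bnip3l* (34.7%), *Pcna* (51.4%) and *Rplp0* (70.3%), and reads from the shared stretches may not be placed with certainty. Of 16 genes listed for alternative activation, the macrophage state driven by IL-4, 1 was called (6.25% lower). The list holds signalling genes such as the kinase *Jak1*, which was not called. The gene called was *Irf4*, which fell from 3.70, 4.82 and 4.03 to 1.07, 1.49 and 1.05 CPM (log2 fold change -1.79, SE 0.249, FDR = 1.03e-05).

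**Figure D4:**
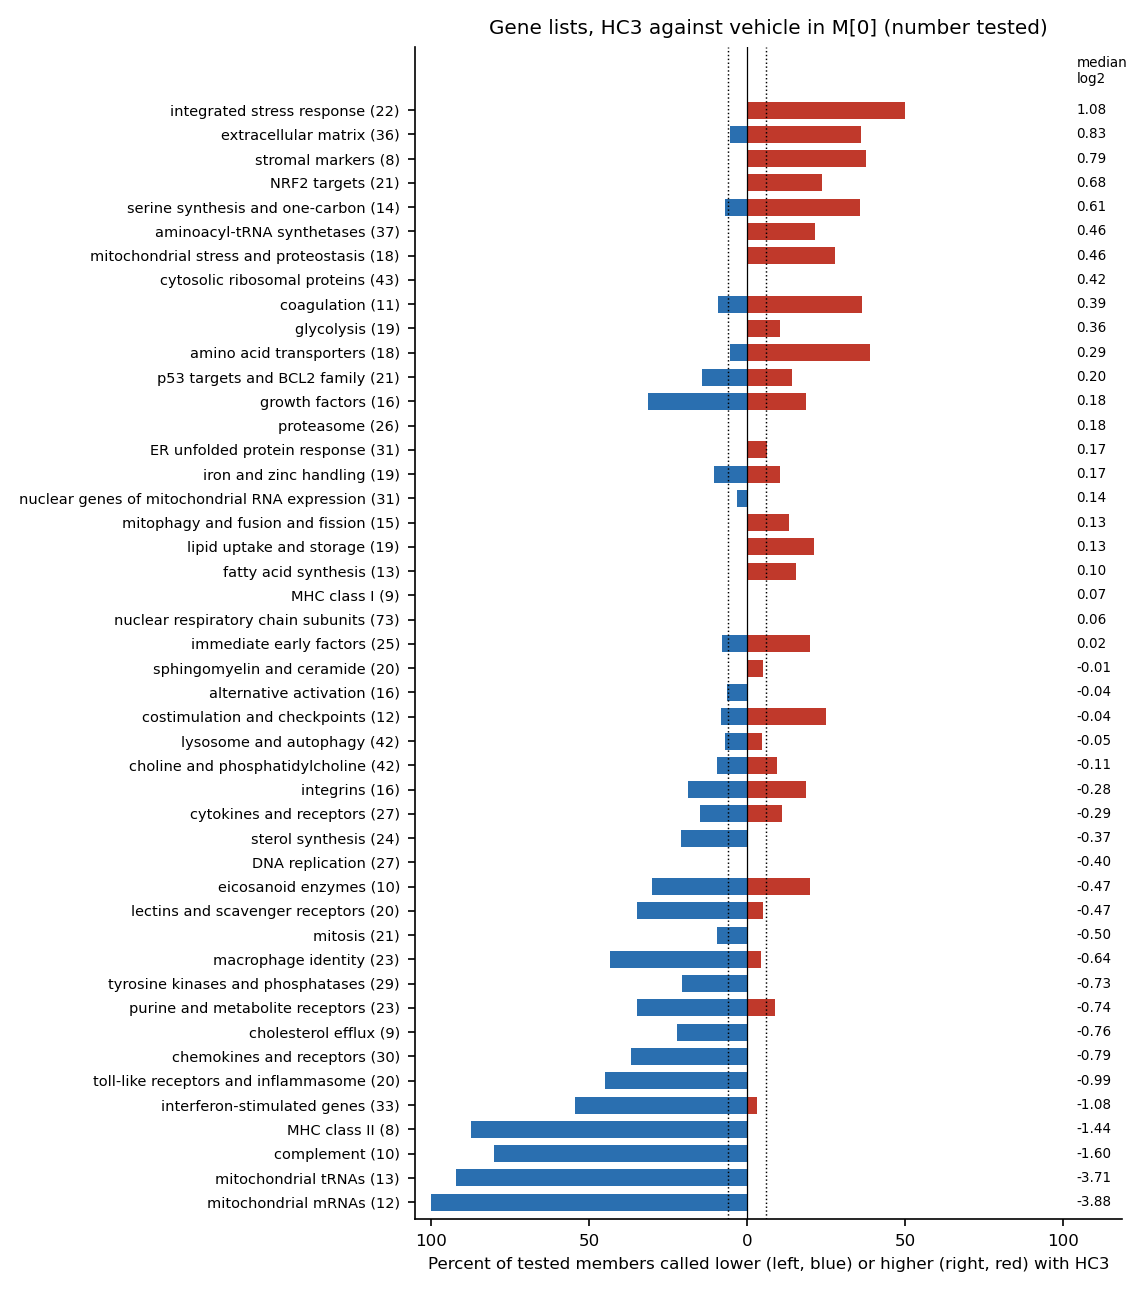
Bars give, for lists with at least 8 tested members, the percent called lower (left, blue) or higher (right, red) with HC3, the number tested stands in brackets, and the column at the right gives the median log2 fold change. Dotted lines mark the shares over all tested genes, 6.11% lower and 5.93% higher, and the lists are ordered by their median, from 1.08 for the ISR to -3.88 for mitochondrial mRNAs.

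Several of the largest rises and falls were in genes nearly silent on one side. *Ffar2*, a receptor for short-chain fatty acids, rose from 0, 0.117 and 0.108 CPM to 14.5, 15.9 and 13.2 CPM (log2 fold change 7.48, SE 0.349, FDR = 4.83e-12). *Cox6a2*, the muscle form of a complex IV subunit, rose from 0.111, 0.646 and 0.592 CPM to 27.4, 26.0 and 30.0 CPM (log2 fold change 5.94, SE 0.285, FDR = 7.13e-12), and the adaptor *Sh2d6* from 0.166, 0.176 and 0.376 CPM to 15.8, 18.6 and 16.5 CPM (log2 fold change 6.09, SE 0.266, FDR = 1.85e-12). The scaffold gene *Dlg2* went from 0.111, 0.117 and 0.269 CPM to 8.40, 15.0 and 9.996 CPM (log2 fold change 5.998, SE 0.379, FDR = 2.87e-10). P-selectin *Selp* had 1 count in the 3 Veh libraries and 337 in the 3 HC3 libraries, a ratio of 316 with a 95% counting interval of 56.4 to 12529. The antisense gene *Gm16587*, which overlaps *Selp* over 21.6% of its exons, had 0 and 278 counts, at least 87.0-fold higher. *Gm19410* had 0 and 169 counts, at least 52.9-fold higher. Among falls, the adhesion receptor *Adgre4* went from 23.1, 23.9 and 20.3 CPM to 0.268, 0.973 and 0.631 CPM (log2 fold change -5.14, SE 0.389, FDR = 3.47e-09) and the membrane protein gene *Ms4a4a* from 39.1, 54.2 and 39.8 CPM to 2.19, 2.77 and 1.999 CPM (log2 fold change -4.25, SE 0.250, FDR = 1.12e-10).

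Block of choline uptake was then compared with block of choline kinase, the next step of the pathway. Each drug was used at 1 dose, and both comparisons with Veh share the Veh libraries. The direct contrast of HC3 with RSM in M[0] called 456 genes (3.04%), 241 higher (1.61%) and 215 lower (1.44%) with HC3. Of the 889 genes called higher against Veh, 74 were also higher than in RSM and 25 lower, and of the 915 called lower, 107 were lower than in RSM and 44 higher. All 12 mitochondrial mRNAs were lower with HC3 than with RSM, and both rRNAs higher. For *mt-Rnr1*, RSM libraries had 912, 680.0 and 734 CPM, between Veh and HC3 (log2 difference 3.57, SE 0.204, FDR = 1.31e-09). For *mt-Nd5*, they had 432, 499.7 and 395 CPM, again between the other groups (log2 difference -3.35, SE 0.161, FDR = 1.41e-10).

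Among macrophage genes, several that fell with HC3 were not called in RSM against Veh, where 11.6% of tested genes were called. *Lyz2* was at 11522, 12586 and 10873 CPM in RSM, with a log2 fold change against Veh of 0.00, and HC3 was lower than RSM (log2 difference -1.20, SE 0.124, FDR = 1.63e-06). *Mrc1* was at 529, 413 and 434 CPM in RSM (0.01 against Veh), again with HC3 lower (log2 difference -1.77, SE 0.121, FDR = 1.21e-08). *Ccl6* (0.06 in RSM and -1.73 in HC3), the lysosomal protease *Ctsc* (-0.10 and -1.27) and *Slc7a7* (-0.34 and -1.498) showed the same order and were called in the direct contrast. *Maf* was at 348, 371 and 375 CPM in RSM (log2 difference -1.29, SE 0.0791, FDR = 3.12e-09), *Lpcat2* at 49.0, 54.2 and 47.0 CPM (log2 difference -1.24, SE 0.121, FDR = 8.56e-07) and *C1qa* at 101, 96.0 and 114 CPM (log2 difference -1.37, SE 0.180, FDR = 3.05e-05), each between HC3 and Veh.

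Other genes fell less, or rose more, with HC3 than with RSM. *H2-Eb1* was at 2.56, 2.77 and 3.23 CPM in RSM (log2 difference 3.12, SE 0.316, FDR = 1.33e-06). The integrin gene *Itgax*, which encodes CD11c, was at 63.0, 62.7 and 57.2 CPM in Veh, 57.0, 50.9 and 43.5 CPM in HC3 and 2.88, 2.20 and 1.39 CPM in RSM (log2 difference 4.55, SE 0.179, FDR = 8.59e-12). Lipoprotein lipase *Lpl* was not called with HC3 (log2 fold change -0.52, SE 0.129, FDR = 0.00298) and was at 1609.7 ± 344 CPM in RSM against 5158 ± 896 CPM in HC3 (SD, n = 3, log2 difference 1.68, SE 0.132, FDR = 6.83e-08). *Ffar2* was at 2.29, 2.88 and 2.41 CPM in RSM (log2 difference 2.52, SE 0.200, FDR = 7.13e-08) and *F3* at 1.17, 1.78 and 1.33 CPM (log2 difference 1.597, SE 0.282, FDR = 0.000622), both above Veh and under HC3. In the ISR, *Trib3* had log2 fold changes of 6.57 with HC3 and 6.49 with RSM, and *Asns* of 2.37 and 2.46. Neither was called in the direct contrast, with a difference of 0.08 (SE 0.0843) for *Trib3* and of -0.09 (SE 0.0932) for *Asns*. *Slc7a11* was lower with HC3 than with RSM (log2 difference -1.26, SE 0.209, FDR = 0.000351).

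The effect of HC3 was also compared between M[0] and M[IL-4] by an interaction term, which called 186 genes (1.24%), 114 with a higher log2 effect in M[0] (0.761%) and 72 with a lower one (0.481%). For *mt-Rnr1* the log2 fold change was 6.08 in M[0] against 6.24 in M[IL-4] (difference -0.16 (SE 0.265, FDR = 0.823)), and for *mt-Nd5* it was -5.60 against -5.96 (difference 0.36 (SE 0.212, FDR = 0.39)). Of the macrophage identity genes 1 was called, *Fcgr1*, with -0.93 in M[0] against 0.66 in M[IL-4] (difference -1.58 (SE 0.153, FDR = 7.81e-06)). In the ISR 3 genes had a higher effect in M[0], among them *Trib3* (6.57 and 5.50) and *Chac1* (4.33 and 2.64). For *Trib3* the level with HC3 was similar, with means of 315 CPM in M[0] and 321 CPM in M[IL-4]. The Veh means were 3.32 CPM in M[0] and 7.06 CPM in M[IL-4].

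**Figure D5:**
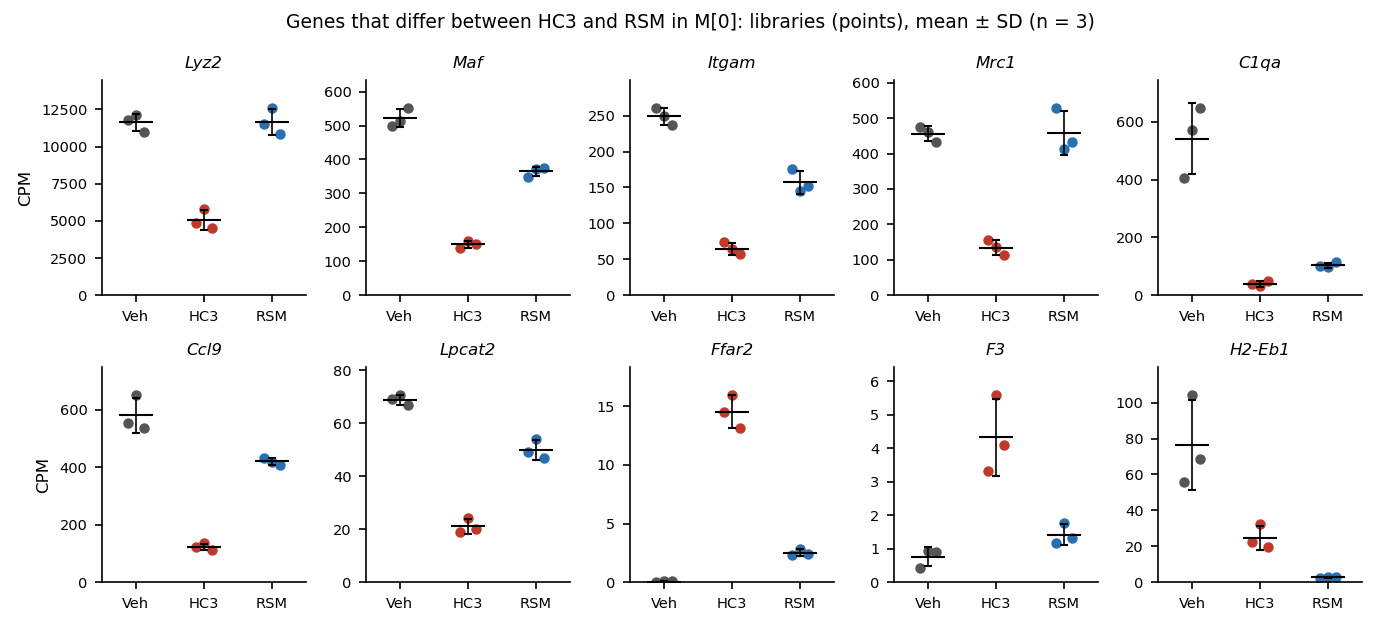
Points give the CPM of each M[0] library for 10 genes called in the direct contrast of HC3 and RSM, by treatment, with the mean and SD over 3 libraries and an axis from 0 in each panel. *Lyz2* and *Mrc1* overlap between Veh and RSM and are lower with HC3, while *H2-Eb1* is lowest with RSM and *Ffar2* and *F3* are highest with HC3.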

How the data were processed

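RNA was isolated from the 18 cultures, mRNA was selected with poly-T beads and cDNA was made with random hexamers. According to the submitters' notes and the study's methods, fastp was used by the authors for trimming, STAR for alignment to GRCm38, Picard for duplicates and featureCounts of Subread for reads per gene. The deposited values are raw whole-number counts per gene. Only read pairs of high mapping quality were kept by the authors, and marked duplicates stayed in the counts. The annotation release, the strand setting and the counting option for reads over several genes are not given in the sources used here. Groups came from the sample labels. The labels do not say which mouse each replicate number stands for, so p-values measure the spread between libraries.

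Counts of all 18 libraries were analysed with edgeR 4.0.16 in R 4.3.3 (TMM scaling, a mean for each of the 6 groups, quasi-likelihood F-tests, Benjamini-Hochberg FDR over 14979 genes). A gene was kept when 2 or more libraries reached 10 counts. A call required an FDR under 0.05 together with a change of 1 or more on the log2 scale, up or down. With 3 against 3 libraries an exact permutation test cannot go under p = 0.1, so none was used for single genes. Counting intervals are at 95%, floors are 3 counts over a group, and both cover counting error only. The named genes were the 10 largest rises and 10 largest falls whose mean in the higher group reached 50 counts and with no overlap between groups, every gene of the mitochondrial mRNA, mitochondrial rRNA, choline and macrophage identity lists, and in every other list up to 3 called genes in each direction and the gene with the highest CPM that was not called. Genes named only for a promoter match, and *Pdgfra* and *Lum*, were chosen after their values were seen. The comparison and its gene lists were chosen with earlier results of these data known, so list counts are descriptions. Some genes are counted in their lists but are not reported here by name.

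Same-numbered Veh and HC3 libraries deviated together from their group means (r across genes = 0.178, 0.247 and 0.183), while different numbers gave -0.172 to 0.00508, so the numbers were taken to pair the libraries. The alternatives were a replicate block, fits of 9 or 6 libraries, DESeq2 1.42.0, other count filters and scalings, omission of mitochondrial genes and omission of each library. When tested on simulated counts of HC3 against Veh over 14979 genes, edgeR recovered 104 of 108 genes changed by a log2 of 1.5 and 90 of 92 changed by 2, with 5 false calls. The simulated libraries were independent, their spread was that of the fit itself, and the changed genes were not of low level. Pairing, genes at low counts and changes as widespread as those observed were therefore not covered. Names and coordinates came from the GRCm38 annotation, which matched 55144 gene identifiers to a symbol. Near-identical copies were found with blastn 2.17.0 (at least 98% identity over at least 100 bases), and the tables were made with Python 3.11.15.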

Additional observations from a re-analysis of the deposited data

Results flagged for a closer look

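The response to HC3 differed between M[0] and M[IL-4] in 25 named genes, by the interaction term of the edgeR fit at the same thresholds, where 186 of all tested genes (1.24%) passed. The values are the log2 effect of HC3 in M[0] minus that in M[IL-4], with their SE and FDR, and 13 were above 0 and 12 below. Such a difference can arise from the Veh level as well as from the level with HC3.

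Among amino acid and stress genes, those passing were 3 of 22 in the ISR, 3 of 14 in serine and folate metabolism, 1 of 18 amino acid transporters and 0 of 37 aminoacyl-tRNA synthetases by edgeR. All of them were above 0. The difference was 1.06 (SE 0.137, FDR = 0.00012) for *Asns*, 1.69 (SE 0.311, FDR = 0.00241) for *Chac1*, 1.07 (SE 0.164, FDR = 0.000552) for *Trib3* and 2.29 (SE 0.359, FDR = 0.000656) for *Slc7a11*. For the serine and folate enzymes it was 1.53 (SE 0.228, FDR = 0.000415) for *Phgdh*, 1.30 (SE 0.227, FDR = 0.00162) for *Psat1* and 1.12 (SE 0.0949, FDR = 1.67e-06) for *Mthfd2*. *Psat1* was not called in M[0] (0.87) and had a log2 fold change of -0.43 in M[IL-4]. The effect of HC3 in M[IL-4] alone was a log2 fold change of 1.66 for *Slc7a11* and 5.50 for *Trib3*.

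Further genes above 0 were tissue factor *F3* at 1.94 (SE 0.453, FDR = 0.0139), the growth factor *Hbegf* at 1.51 (SE 0.204, FDR = 0.000181), the integrin *Itgb3* at 1.71 (SE 0.259, FDR = 0.000475), the transcription factor *Klf4* at 1.78 (SE 0.122, FDR = 2.61e-07), the prostaglandin receptor *Ptger2* at 1.12 (SE 0.195, FDR = 0.00162) and P-selectin *Selp* at 5.09 (SE 0.620, FDR = 7.38e-05). *Selp* had 1 count in the 3 Veh M[0] libraries, so its value depends on the prior count of the fit. Its mean with HC3 was 5.88 CPM in M[0] and 4.74 CPM in M[IL-4]. Its Veh mean was 0.0179 CPM in M[0] and 0.689 CPM in M[IL-4].

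Surface receptors made up much of the group under 0. *Ms4a4a* gave -2.86 (SE 0.315, FDR = 2.64e-05), *Cd4* -2.12 (SE 0.444, FDR = 0.00657), *Gpr183* -1.80 (SE 0.160, FDR = 2.71e-06), the ADP receptor *P2ry12* -1.71 (SE 0.487, FDR = 0.0416), the IgG receptor *Fcgr1* -1.58 (SE 0.153, FDR = 7.81e-06), *Clec4e* -1.36 (SE 0.334, FDR = 0.0194), *Clec4a1* -1.10 (SE 0.247, FDR = 0.0108) and the mannose receptor *Mrc1* -1.01 (SE 0.165, FDR = 0.000942). The transporter *Abcg3* gave -1.66 (SE 0.389, FDR = 0.0144), the growth factor *Bmp2* -2.17 (SE 0.218, FDR = 1.12e-05), the guanylate-binding gene *Gbp7* -1.34 (SE 0.387, FDR = 0.0451) and the immunoglobulin gene *Ighm* -1.80 (SE 0.441, FDR = 0.0188). *Clec4e* rose in M[0] (2.07) and had a larger log2 fold change in M[IL-4] (3.42).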

How the results depend on the processing

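The number of genes called for HC3 against Veh in M[0], 1804, ran from 1575 (without Veh replicate 2) to 1917 (no count filter) over 15 alternatives, and no called gene was called in the opposite direction under any of them. With the replicate number as a block to account for the pairing, 1875 genes were called, 1789 of them shared with the unblocked fit, and a block in a fit of the 9 M[0] libraries gave 1900 with 1773 shared. Leaving out single libraries gave 1575 to 1843. The count for HC3 against RSM ran from 343 to 590 and that for the difference between M[0] and M[IL-4] from 141 to 242. Of 307 named genes, 28 changed their call under at least 1 alternative, and none of those called changed direction under any. Those that rest on 1 library or lie near the fold threshold are given with their values in the report where they are named there, and the cause was not tested. Genes at about 1 CPM or less, such as *Pcyt1b* and *mt-Ts2*, rest on few counts, since 3 counts correspond to about 0.154 CPM in the deepest library.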
